A study of Mus musculus with 7 samples.

Results

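Cytotoxic lymphocytes in libraries labelled as mouse seminal vesicle were taken as the cells that held at least 5 UMIs of *Gzma*, *Gzmb* and *Nkg7* together, at most 2 UMIs of *C1qa*, *C1qb* and *C1qc* together and 0 UMIs of *Cd79a*. A UMI (unique molecular identifier) is a short barcode by which each captured RNA molecule is counted once. *Gzma* and *Gzmb* encode granzymes, the proteases of killer cell granules, *Nkg7* encodes a granule membrane protein, the C1q genes mark macrophages and *Cd79a* marks B cells. Of 53352 cells deposited, 40342 had at least 500 genes and at most 10% mitochondrial UMIs, and 405 of these met the rule. The cells were thus chosen by their own measured UMIs of these genes, whose values are no finding.

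Tissue of 23 male mice was dissociated, and cell suspensions of each mouse were read by droplet RNA sequencing in 7 libraries. The aging pool joined 10 tagged C57BL/6J mice on chow, with 2 mice at 3 months, 4 at 20 months and 4 at 28 months, and rapamycin had been given for a time to 2 of the 4 at each of the older ages. The diet pool joined 8 tagged FVB/NJ mice aged 3 months, with 2 mice each on caloric restriction and on control, high fat and low protein diet. From each of 5 further FVB/NJ mice a library of its own was made. These were a young individual (3 months) and an old individual (18 months) on control diet, and mice aged 3 months on control diet, on high fat diet and on low protein diet. Strain, pool and diet base changed together between the pools and cannot be told apart, and all mice older than 3 months other than the old individual were C57BL/6J.

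Natural killer (NK) cells and cytotoxic T cells both kill target cells by releasing perforin and granzymes. T cells recognise antigen through a T cell receptor that reaches the surface with the CD3 proteins, whereas NK cells lack that receptor and read activating and inhibitory receptors, many of which signal through the adaptors Fcer1g and Tyrobp. Natural killer T (NKT) cells are T cells with an invariant receptor and the transcription factor Zbtb16, and tissue-resident T cells of epithelia are known for the integrin chain Itgae (CD103).

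The aging pool held 149 of the cells (lowest 5, median 16.5 and highest 24 per mouse), the diet pool 127 (5, 16.5 and 28) and the single-mouse libraries 129, of which 78 came from the young individual, 25 from the old individual, and 12, 9 and 5 from the mice on control, high fat and low protein diet. A cytotoxic lymphocyte held a median of 2563 UMIs, against 3035 over all cells that passed the filter. The medians of the aging pool (3026 UMIs) and the diet pool (3006) were alike, and that of the single-mouse libraries was lower (1188). Summed over its cytotoxic lymphocytes, a mouse held 11308 to 255817 UMIs. The median over the cytotoxic lymphocytes of a mouse ran from 2249 to 4532 UMIs in the aging pool, from 1911 to 3652 in the diet pool and from 1079 to 5172 in the single-mouse libraries. The granzyme and Nkg7 UMIs of 1 cell had a median of 13 and a maximum of 134, and 207 cells held UMIs of all 3 genes. The 43 cells just inside the limit, with 5 UMIs, were 67.4% CD3-positive and 51.2% held a *Cd7* UMI. The 45 cells just outside it, with 4 UMIs, gave 66.7% and 46.7%. With the number of these UMIs the *Cd7* share was 34.9% in cells with 2, 65.6% in cells with 6 and 56% in the 25 cells with 7, so cells at the limit held *Cd7* less often than the whole group.

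Before the results, a pair of features of these cells needs stating. Of the 405 cells, 32 (7.90%) drew at least 10% of their UMIs from 6 *Svs* genes, which encode the seminal vesicle secretory proteins of the epithelium, and these 32 cells held 48.4% of all UMIs of the cytotoxic lymphocytes. They are called Svs-rich here. In the aging pool 17 of 149 cells were Svs-rich (median 53889 UMIs, 63.3% of the UMIs), in the diet pool 4 of 127 (11.2% of the UMIs) and in the single-mouse libraries 11 of 129 (43.1%). The median number of *Svs* UMIs per cell was nearly the same in cytotoxic lymphocytes, other T cells and macrophage-like cells of a pool, namely 39, 35 and 45 in the aging pool and 14, 12 and 14 in the diet pool. Comparisons of gene levels between pools, ages and CD3 kinds are therefore given with and without the Svs-rich cells. CPM levels against non-cytotoxic T cells are given without them, whereas counts of listed genes against those T cells include them. Without them 373 cells remained. No doublet caller was run. Of the 405 cells, 88 held 5 or more UMIs of fibroblast, smooth muscle, endothelial, basal or B cell markers, 22 of them Svs-rich, and 4 had a barcode that also occurred in another mouse, none of them shared with another cytotoxic lymphocyte.

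The libraries of the young and the old individual held RNA of another organ beside their label. Over all their cells, 4 genes of the epididymal epithelium (*Gpx5*, a secreted peroxidase-like protein, and others) had 852214 UMIs in the young and 2289224 in the old individual, against at most 33 in any other mouse. In the cytotoxic lymphocytes these genes had 1015 UMIs in the young individual, in 25 of its 78 cells, and 624 in the old individual, in 17 of its 25 cells, with 1612 of 1642 UMIs in all from *Gpx5*. The organ from which the cells of these mice came cannot be told apart by their RNA here. Without both mice 302 of the 405 cells remained. Of these, 71.5% were CD3-positive (71.6% with both), 75.2% held a *Cd7* UMI (77.5%) and 25.5% a *Cd8a* or *Cd8b1* UMI (19.3%). Comparisons between the pools, and within the aging or the diet pool, did not use either mouse.

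The cells were lymphocytes by markers that the rule did not use. A UMI of *Cd7*, which encodes a lymphocyte surface protein and was named as a marker of these cells, was present in 77.5% of them (95% Clopper-Pearson interval 73.1 to 81.5%). The share was 9.54% in 587 other CD3-positive cells with at most 1 granzyme or Nkg7 UMI (the non-cytotoxic T cells, median 2399 UMIs) and 0.201% in 1493 cells with at least 5 C1q UMIs (the C1q-rich cells, median 3190 UMIs), which should lack it. Intervals here cover counting error only. *Ptprc* (CD45), the pan-leukocyte gene, was read in 323 of the 405 cells. Several defining genes of other immune cells were at 0. *Adgre1* of macrophages, *Xcr1*, *Clec9a* and *Flt3* of dendritic cells, *Ms4a1* of B cells, and *S100a9* and *Retnlg* of neutrophils had 0 UMIs, which allows a UMI in up to 0.741% of the cells for each. Over whole lists, 4 of 5 macrophage genes were read at all, the C1q genes that the rule limits left out, with 25 UMIs in total (most from *Lyz2*, 15). Dendritic cell genes had 13 UMIs, of which 12 were *Ccl22*. B and plasma cell genes had 85 UMIs, of which 78 were *Ighm*, an antibody heavy chain, at a summed level of 36.1 CPM in the aging pool, 77.5 CPM in the diet pool and 96.9 CPM in C1q-rich cells. *Ighm* was read in 15.6% of the cells. Mast cell and basophil genes had 194 UMIs, of which 112 were *Mcpt4*, and 4 cells held 2 or more of them. Their summed level was 16.9 CPM (UMIs per 1000000) in the aging and 299 CPM in the diet pool, and its part in the pool comparisons was not tested. Basal cell genes had 2255 UMIs, led by *Krt8* with 990, and fibroblast genes 1174, led by *Dcn* with 774. Genes of prostate-like epithelium had 1150, smooth muscle genes 407 and endothelial genes 89. The 6 *Svs* genes had 601646, led by *Svs5* with 261415.

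The label of these cells joins NK and NKT-like lymphocytes, and the receptor genes split them differently. At least 2 UMIs of *Cd3d*, *Cd3e* and *Cd3g* together, the CD3 chains of the T cell receptor complex, were present in 290 of the 405 cells (CD3-positive), 78 had none (CD3-negative) and 37 had 1. Over the cells of all mice together, the median depth was 2433.5 UMIs in CD3-positive and 2830 in CD3-negative cells. Depth differed between mice, and its part in this split was not tested. *Zbtb16*, the transcription factor of NKT cells, was read in 5.19% of cytotoxic lymphocytes (95% interval 3.24 to 7.82%), below the 14.5% of non-cytotoxic T cells and close to the 5.16% of C1q-rich cells, and free RNA was not estimated. *Trav11*, *Trav11d* and *Traj18*, the segments of the invariant NKT receptor, had 0 UMIs in any cell of the series, so this 3′ assay could not test for them. These genes did not set NKT cells apart here, and the cells are called cytotoxic lymphocytes below.

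**Figure D1:**
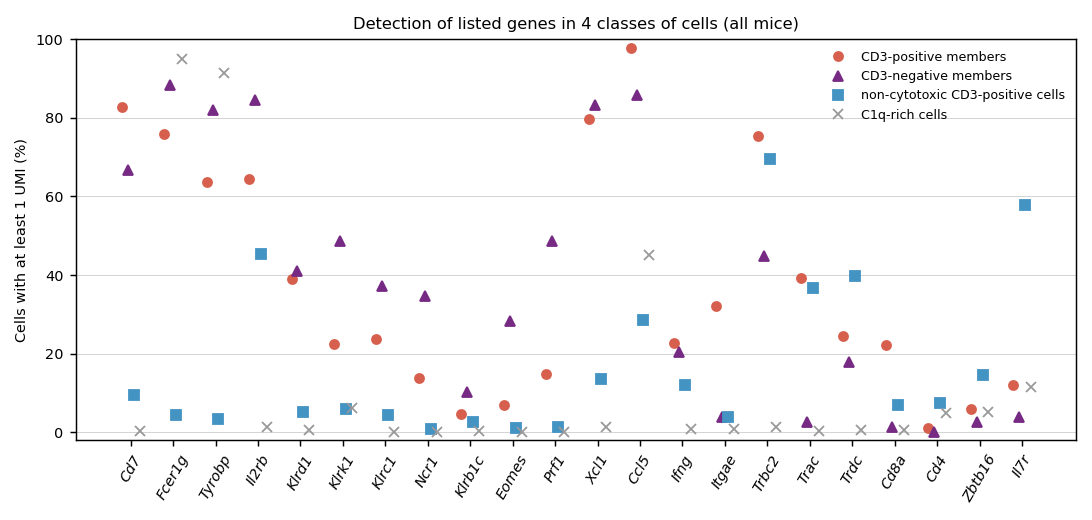
Percent of cells with at least 1 UMI of each gene (y axis, 0 to 100%) in CD3-positive and CD3-negative cytotoxic lymphocytes (named members in the plot), non-cytotoxic T cells and C1q-rich cells, 1 marker per class and gene. *Cd7* reached 82.8% in CD3-positive and 66.7% in CD3-negative cytotoxic lymphocytes against 9.54% in non-cytotoxic T cells.

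The granule genes beyond the rule were led by *Srgn*, the proteoglycan that packs granule proteins, *Ctsw*, a cathepsin of cytotoxic cells, *Serpinb9*, the inhibitor of granzyme B, and *Serpinb6b*, a related serpin. *Srgn* was read in 87.4% of cytotoxic lymphocytes but also in 90.8% of non-cytotoxic T cells and 88.3% of C1q-rich cells, so it did not mark them. *Ctsw* was read in 72.1% against 20.4% of non-cytotoxic T cells and 0.469% of C1q-rich cells, and *Serpinb9* in 42.0% against 14.1% and 2.41%. *Prf1*, the pore-forming perforin, was read in 22.7% of all cytotoxic lymphocytes, 48.7% of the CD3-negative and 14.8% of the CD3-positive cells, against 1.36% of non-cytotoxic T cells. *Fasl*, the ligand of the death receptor Fas, did not split in that way, with 35.9% of CD3-negative and 35.5% of CD3-positive cells. Of the 20 cytotoxic effector genes listed, 14 had a higher and 5 a lower mean level in cytotoxic lymphocytes than in non-cytotoxic T cells of the same 14 mice. *Gzmg* was at 0 in both classes. The 14 mice had at least 10 cells of each class. They included the young and the old individual but no mouse on low protein diet. The list counts against non-cytotoxic T cells, here and below, include the Svs-rich cells. The share of all genes with a higher mean is not given beside them, so they describe the lists only. The granzymes *Gzmc*, *Gzmd*, *Gzme*, *Gzmf* and *Gzmg* are near-identical neighbours, so their single values are uncertain. *Gzmc* had the most UMIs of these, 123, in 9.88% of the cells.

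All 32 measured NK receptor and adaptor genes had a higher mean level in cytotoxic lymphocytes than in non-cytotoxic T cells of these 14 mice, which is a description because the 2 classes were cut on granule genes. Levels are given in CPM of the summed cells of a mouse, without Svs-rich cells and over 13 mice with at least 10 cells of each class. The young and the old individual were among the 13 mice. These counts of RNA 3′ ends need no scaling by gene length. *Fcer1g*, which encodes an adaptor of activating receptors, had 1004 ± 295 CPM (SD, n = 13) against 37.7 ± 54.1 CPM in non-cytotoxic T cells, and was higher in 13 of 13 mice. *Tyrobp*, its partner adaptor (DAP12), had 865 ± 384 against 19.0 ± 29.8 CPM, also higher in 13 of 13. Both adaptors together were read in 61.5% of cytotoxic lymphocytes and 1.53% of non-cytotoxic T cells, while 87.8% of the myeloid C1q-rich cells held both. The adaptors were not confined to cells without CD3. Both were read in 60.0% of CD3-positive and 74.4% of CD3-negative cells, and at least 1 of them in 79.7% and 96.2%.

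*Klrd1* (CD94), which pairs with the NKG2 receptors, had 208 ± 121 CPM against 19.7 ± 28.0 CPM in the same comparison (higher in 13 of 13 mice). Its partners *Klrc1* and *Klrc2*, which are close paralogs and may share reads, were read in 25.9% and 25.2% of the cells. *Klrk1* (NKG2D, an activating receptor) was read in 48.7% of CD3-negative and 22.4% of CD3-positive cells. *Ncr1* (NKp46) was read in 34.6% of CD3-negative and 13.8% of CD3-positive cells, and *Eomes*, a transcription factor of NK and cytotoxic T cells, in 28.2% and 6.90%. Together with *Klrb1c* (NK1.1), at least 1 of these 3 genes was read in 56.4% of CD3-negative cells (95% interval 44.7 to 67.6%), 20.3% of CD3-positive cells (15.9 to 25.4%), 4.09% of non-cytotoxic T cells and 0.268% of C1q-rich cells. Without the young and the old individual the share was 57.4% of CD3-negative and 22.2% of CD3-positive cells.

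Among the T cell receptor genes, *Trac*, the alpha chain constant gene, was read in 39.3% of CD3-positive and 2.56% of CD3-negative cells. The constant genes of the gamma and delta chains (*Trdc*, *Tcrg-C1*, *Tcrg-C2* or *Tcrg-C4*) were read in 41.7% and 21.8%, and 34 of the 405 cells held UMIs of both kinds of receptor. *Cd8a* or *Cd8b1*, the CD8 coreceptor of cytotoxic T cells, was read in 26.2% of CD3-positive cells, 1.28% of CD3-negative cells, 9.71% of non-cytotoxic T cells and 0.670% of C1q-rich cells. Without the young and the old individual it was read in 34.7% of CD3-positive cells, and *Trac* in 45.8%. *Cd4*, the coreceptor of helper T cells, was read in 0.741% of the cytotoxic lymphocytes, under the 4.82% of C1q-rich cells. *Trbc1*, 1 of the beta chain constant genes, was read in 66.7% of the CD3-negative and 45.9% of the CD3-positive cells, while *Trbc2* was higher in CD3-positive cells in the comparison within mice below. Of the 22 T cell receptor complex genes listed, 7 had a higher and 15 a lower mean level in cytotoxic lymphocytes than in non-cytotoxic T cells of the same 14 mice, which were themselves chosen for CD3 UMIs. Among the 7, *Lck*, the kinase that starts receptor signalling, was higher than in non-cytotoxic T cells in 13 of 13 mice (208 ± 52.9 against 78.8 ± 50.9 CPM).

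Genes of gamma delta T cells that make interleukin 17 lay with the non-cytotoxic T cells. *Cd163l1* (SCART1) was read in 31.2% of those and 0.988% of cytotoxic lymphocytes, *Il17a* in 9.88% and 0.247%, *Il23r*, the receptor that sustains that program, in 10.7% and 0.247%, and *Trdv4*, a delta chain variable segment, in 27.8% and 6.42%. *Il7r*, the interleukin 7 receptor of long-lived T cells, was read in 57.8% of non-cytotoxic T cells and 9.88% of cytotoxic lymphocytes, and *Icos*, a costimulatory receptor, in 43.1% and 9.38%. The inhibitory receptors *Pdcd1* (PD-1) and *Ctla4* were also rarer in cytotoxic lymphocytes, with 4.69% against 15.0% and 4.94% against 18.4%. Of the 7 checkpoint genes listed, 4 had a higher and 3 a lower mean level than in non-cytotoxic T cells (14 mice), so the list did not move one way.

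Of 10 tissue residency genes listed, 6 had a higher and 4 a lower mean level in cytotoxic lymphocytes than in non-cytotoxic T cells of the same 14 mice, and so had 6 and 4 of the 10 circulation genes. The shares of CD3-positive and CD3-negative cells below describe the cells of all mice together, and no test was run on them. By these shares the integrin chains *Itgae* and *Itga1* were read in more of the CD3-positive cells. *Itgae* was read in 32.1% of CD3-positive cells (95% interval 26.7 to 37.8%), 3.85% of CD3-negative cells (0.800 to 10.8%), 3.75% of non-cytotoxic T cells and 0.871% of C1q-rich cells. Without the young and the old individual it was read in 37.0% of CD3-positive and 3.28% of CD3-negative cells. *Itga1* (CD49a, a collagen-binding integrin of resident lymphocytes) was read in 25.2% and 7.69%, and *Cxcr6*, a chemokine receptor of resident lymphocytes, in 44.8% and 19.2% of CD3-positive and CD3-negative cells, beside 45.5% of non-cytotoxic T cells. *Rgs1*, a brake on chemokine receptor signalling, had 2088 ± 566 CPM against 851 ± 200 CPM in non-cytotoxic T cells (higher in 13 of 13 mice). *S1pr1*, the receptor by which lymphocytes leave tissue, was read in 2.22%, and *S1pr5*, the receptor of circulating NK cells, in 0.494% of the cells. *Ccr2*, a chemokine receptor of recruited cells, was read in 30.8% of CD3-negative and 6.55% of CD3-positive cells.

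The chemokine genes *Ccl5*, *Ccl4* and *Xcl1* had the most UMIs among the secreted factors listed. *Ccl5*, which attracts T cells and monocytes, was read in 94.6% of the cells at 8634 ± 3339 CPM, against 1025 ± 901 CPM in non-cytotoxic T cells. *Xcl1*, which attracts cross-presenting dendritic cells, was read in 78.8% of the cells at 1739 ± 700 CPM, against 101 ± 114 CPM, and in 1.21% of C1q-rich cells. *Ccl4* was read in 52.8% of the cells but in 84.7% of C1q-rich cells, so it did not mark them, and free RNA was not estimated. *Ifng*, the interferon that activates macrophages, was read in 22.7% of cytotoxic lymphocytes, 11.9% of non-cytotoxic T cells and 0.737% of C1q-rich cells. Its level varied widely between mice (lowest 0, median 169 and highest 1070 CPM over 15 mice). *Il10*, *Il21* and *Il22*, which encode regulatory and mucosal cytokines, had 0 UMIs, which allows a UMI in up to 0.741% of the cells for each. This limits detection and not the share of cells that express them. At least 2 UMIs of 9 cell division genes (*Mki67*, *Top2a* and others) were present in 4.94% of the cells, against 4.77% of non-cytotoxic T cells. The share was 10.3% in CD3-negative (95% interval 4.53 to 19.2%) and 3.79% in CD3-positive cells (1.91 to 6.69%). These shares describe the cells of all mice together, and no test was run on them.

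The share of cytotoxic lymphocytes among all cells of a mouse did not differ between the pools beyond the spread of the mice. In the aging mice it was 3.03 ± 0.911% (SD, n = 10), with a lowest value of 1.55%, a median of 2.82% and a highest of 4.92%. The diet pool had 2.5 ± 0.886% (n = 8), with 1.34%, 2.55% and 4.08%. The ranges overlapped almost fully, and the difference of 0.529 percentage points gave p = 0.235 (exact two-sided permutation test). Its size depended on the limits set, with 0.953 at 3 or more rule UMIs, 0.0189 at 10 or more, 0.0506 without cells holding stromal, endothelial, basal or B cell UMIs, and -0.412 with every cell thinned to 1000 UMIs, none of which passed the test. Of the cells with a *Ptprc* UMI, however, they made up 9.69 ± 3.07% in the aging and 17.4 ± 5.07% in the diet pool (p = 0.000823, exact permutation test), a difference in the other direction. The aging mice of 3 months had 9.57% and 11.2%, and the diet mice 9.62% to 24.5%. Cells past the filter were deeper in the aging pool (mean of the mouse medians 4202 against 3134 UMIs). This share was not tested at equal depth or at 3 months alone. The single-mouse libraries had lower shares of all cells, with the cells of the young and the old individual that hold epididymal RNA counted in the total. The shares were 0.851% in the young individual (95% Clopper-Pearson interval 0.673 to 1.06%), 0.274% in the old individual (0.178 to 0.405%), and 0.285%, 0.234% and 0.136% in the mice on control, high fat and low protein diet. Of cells with a *Ptprc* UMI they did not lie below the pools throughout, with 25.8% in the young individual (50 of 194 cells), 16 of 89 in the old individual, and 8 of 61, 3 of 50 and 2 of 34 in the mice on control, high fat and low protein diet.

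**Figure D2:**
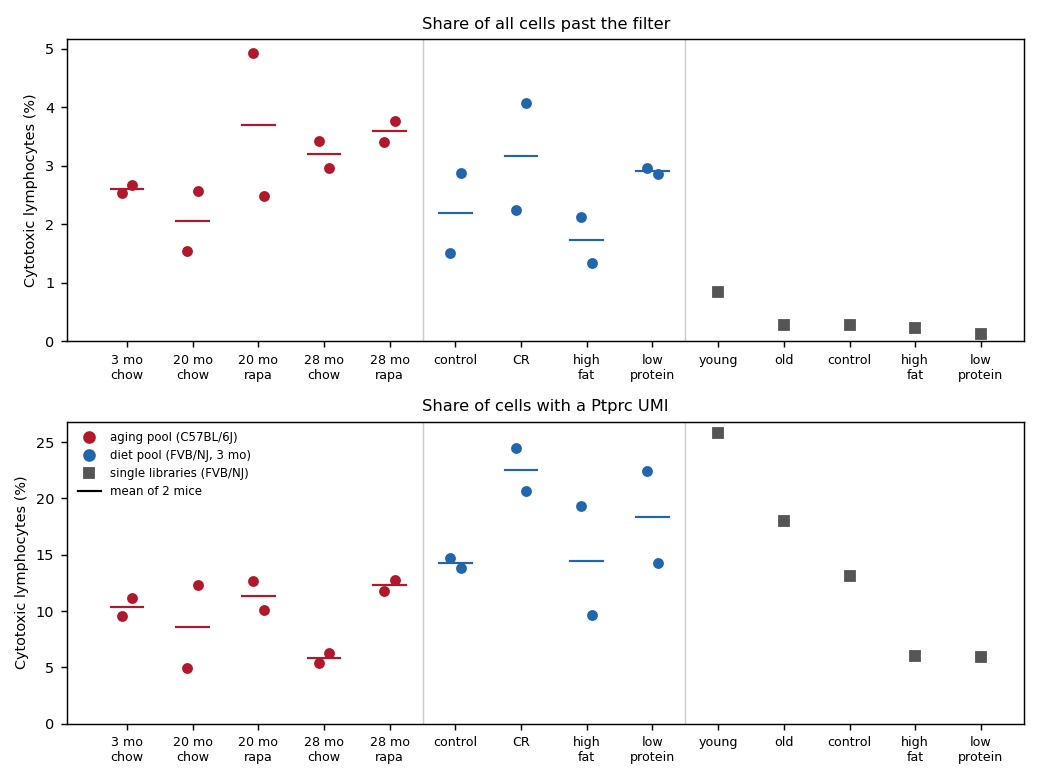
Cytotoxic lymphocytes as a percent of all cells past the filter (upper panel, y axis) and of cells with a *Ptprc* UMI (lower panel, y axis), 1 point per mouse by condition (x axis), lines at the mean of 2 mice. Of all cells, both pools lie between 1.34% and 4.92% and the single-mouse libraries between 0.136% and 0.851%, while of *Ptprc* cells the diet pool reaches higher than the aging pool.

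Within the aging pool, the question was whether age or rapamycin, an inhibitor of the growth kinase mTOR, went with the amount of these cells. The mice of 3 months had 2.54% and 2.68%, and the 8 older mice 3.14 ± 1.00%, from 1.55% to 4.92% (p = 0.489, exact permutation test). At 20 and 28 months the 4 mice with rapamycin had 3.64 ± 1.01% (2.48%, 3.41%, 3.76% and 4.92%) and the 4 on chow alone 2.63 ± 0.798% (1.55%, 2.58%, 2.97% and 3.42%). The 2 groups overlapped (difference 1.02 percentage points, p = 0.229, exact permutation test). The difference was 4.61 of cells with a *Ptprc* UMI (11.8% against 7.21%, p = 0.0857) and 0.274 with every cell thinned to 1000 UMIs (p = 0.514, both exact permutation tests). Within the diet pool, the pairs of mice had 1.51% and 2.87% on control, 2.24% and 4.08% on caloric restriction, 2.13% and 1.34% on high fat, and 2.97% and 2.86% on low protein diet. The range of each diet overlapped that of at least 1 other, and the test over the 4 diets gave F = 1.17 and p = 0.467 (exact permutation test of the F statistic).

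The composition of the cytotoxic lymphocytes differed between the pools. Among mice with at least 10 of the cells, 43.6 ± 15.2% of them (n = 8) held a *Cd8a* or *Cd8b1* UMI in the aging pool, with a lowest value of 22.2%, a median of 39.5% and a highest of 66.7%. In the diet pool it was 10.2 ± 7.02% (n = 6), with 0%, 10.2% and 17.9%, so the groups did not overlap (difference 33.4 percentage points, p = 0.000999, exact permutation test). The aging mice of 3 months, the age of the diet pool, had 44.4% (4 of 9 cells) and 42.1% (8 of 19). Against the 8 mice of the diet pool this gave p = 0.0222 (exact permutation test), the smallest that 2 against 8 mice allow. The young individual, also FVB/NJ but in a library of its own with fewer UMIs per cell, had 1.28% (1 of 78 cells), and the old individual 0 of 25. The mouse with a library of its own on high fat diet had 22.2% (2 of 9), within the range of the aging pool, and those on control and low protein diet 0 of 12 and 0 of 5. The young and the old individual are the libraries with epididymal RNA, whose part in these values was not tested. Without Svs-rich cells the shares were 43.0% and 10.6% (p = 0.000583), and in the same cells thinned to 1000 UMIs 25.4% and 6.22% (p = 0.00466, both exact permutation tests). Where every cell was thinned to 1000 UMIs before the rule was applied, 3 and 5 mice kept 10 of the cells, and the shares were 23% and 7.11% (p = 0.0893, exact permutation test). The tests on *Cd8a* or *Cd8b1* and on the adaptors were added once the data were known.

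The adaptor pair went the other way. Cells with both *Fcer1g* and *Tyrobp* UMIs made up 47.0 ± 9.65% in the aging pool (lowest 33.3%, median 45.8%, highest 63.2%, n = 8) and 80.4 ± 19.5% in the diet pool (41.7%, 86.3% and 93.8%, n = 6). Of the diet mice, low protein 1 alone lay within the range of the aging pool (p = 0.003, exact permutation test). Without Svs-rich cells the shares were 49.0% and 79.7% (p = 0.0105, exact permutation test). The difference was smaller and did not pass the test between the mice of 3 months alone (59.4% against 75.7%, p = 0.4, exact permutation test). In the same cells thinned to 1000 UMIs the direction held (31.4% against 50.7%, p = 0.016, exact permutation test). Thinning every cell before the rule turned it (67.6% against 60.1%, p = 0.518, exact permutation test). The share of CD3-positive cells was 77.8 ± 9.52% in the aging and 68.3 ± 16.4% in the diet pool and did not pass the test (p = 0.195, exact permutation test). With at least 3 granzyme and Nkg7 UMIs in place of 5 the difference was 11.5 percentage points (p = 0.0498), with at least 10 it was 1.72 (p = 0.881), and with every cell thinned first -0.149 (p = 1, all exact permutation tests).

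**Figure D3:**
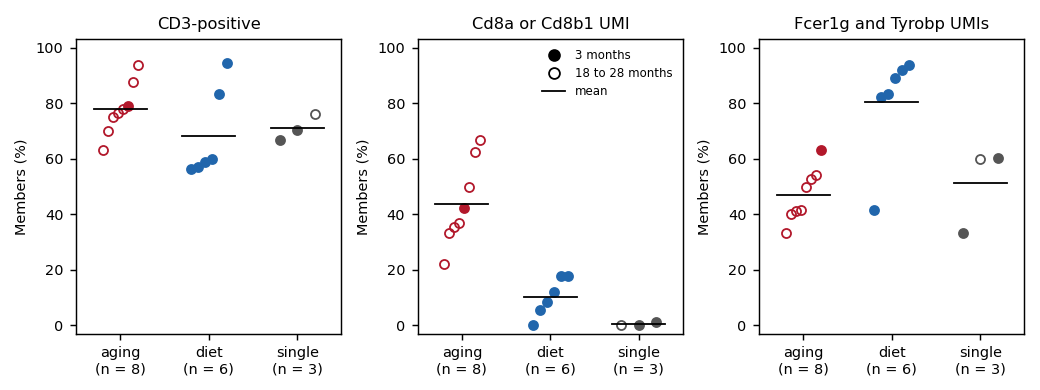
Percent of a mouse's cytotoxic lymphocytes (members in the plot) that were CD3-positive, held a *Cd8a* or *Cd8b1* UMI, or held UMIs of both *Fcer1g* and *Tyrobp* (y axes), 1 point per mouse with at least 10 of the cells in the aging pool, the diet pool and the single-mouse libraries (x axis), filled at 3 months and open at 18 to 28 months, lines at the mean. The *Cd8a* or *Cd8b1* panel shows no overlap between the aging pool (22.2 to 66.7%) and the diet pool (0 to 17.9%).

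Gene levels in the cytotoxic lymphocytes were compared between the pools on UMIs summed per mouse, in 8 aging and 6 diet mice with at least 10 of the cells, with edgeR (quasi-likelihood test, p adjusted after Benjamini and Hochberg over all genes). Of 1121 genes tested, the genes of the rule left out, 152 passed an adjusted p of 0.05 (13.6%), 69 higher in the aging pool (6.16%) and 83 lower (7.4%). This split depended on the scaling. By library size alone 21 were higher and 300 lower, where the median log2 fold change of all genes moved from 0.04 to -0.57. Without Svs-rich cells, 7 and 6 mice remained, and 105 of 818 genes passed (12.8%), 55 higher (6.72%) and 50 lower (6.11%). In both fits 56 genes passed, all in the same direction. Of the 8 genes with the largest rise in all cells, 7 fell below the filter on low counts without the Svs-rich cells, namely *Pate6* (log2 fold change 4.24), *BC004004* (3.91), *Cdo1* (3.82), which oxidises cysteine, *Serpine2* (3.76), a protease inhibitor, *Nucb2* (3.31), *Krt17* (3.20), a keratin, and *Dnase2b* (3.19), a nuclease. The exception was *Ms4a4b*. Of the 8 with the largest fall, 6 could still be tested and 5 passed again, all but *Irf8* (-1.28, adjusted p = 0.129). The pair below the filter was *Cd200r4*, a receptor of the CD200 family (-3.08 with all cells), and *Tnfrsf9* (4-1BB), a costimulatory receptor (-2.59). Of the *Svs* genes themselves, none of 6 passed with all cells, and 4 of the 5 tested were higher in the aging pool without Svs-rich cells (for example *Svs2* with a log2 fold change of 1.39). *Svs* RNA thus moved with the pool, and its part in the other results was not tested.

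*Ms4a4b*, which encodes a membrane protein of T cells, had the largest rise in the aging pool without Svs-rich cells. It had 427 ± 241 CPM (lowest 185, median 300, highest 753, n = 7) in the aging pool and 33.1 ± 48.4 CPM (0, 18 and 128, n = 6) in the diet pool. The ranges did not overlap, and the log2 fold change was 3.80 ± 0.55 (SE, edgeR adjusted p = 0.000883). *Cd8a*, at chr6:71373427-71379173 (GRCm38), had 258 ± 112 CPM (67.5, 258 and 399) against 33.7 ± 41.0 CPM (0, 24.6 and 110), with 1 aging mouse inside the diet range. Its log2 fold change was 2.77 ± 0.51 (edgeR adjusted p = 0.00248), and it was too low to be tested with the Svs-rich cells included. *Trac* had 278 ± 71.3 CPM (193, 278 and 397) against 123 ± 63.0 CPM (30.7, 136 and 192), with no overlap and a log2 fold change of 1.25 ± 0.30 (edgeR adjusted p = 0.0136). With the Svs-rich cells *Trac* did not pass (1.01 ± 0.37, adjusted p = 0.0739). Also in the aging mice of 3 months against the diet pool (at least 5 cells a mouse) it was not higher (log2 fold change -0.56 ± 0.57, edgeR adjusted p = 0.615). *Cd2*, an adhesion receptor of T and NK cells, rose by 1.25 ± 0.32 on the log2 scale without Svs-rich cells (edgeR adjusted p = 0.0195).

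Several named receptor and adaptor genes were lower in the aging pool, with levels again without Svs-rich cells. *Il2rb*, the beta chain of the interleukin 2 and 15 receptors, had 327 ± 72.2 CPM (lowest 222, median 365, highest 407, n = 7) against 654 ± 85.3 CPM (492, 675 and 727, n = 6). The groups did not overlap, and the log2 fold change was -0.99 ± 0.16 (edgeR adjusted p = 0.00101). *Klrd1* had 123 ± 62.7 CPM (64.2, 111 and 236) against 321 ± 99.7 CPM (203, 343 and 411), a fall by 1.39 ± 0.30 on the log2 scale (edgeR adjusted p = 0.00679), with 1 aging mouse inside the diet range. *Fcer1g* had 815 ± 272 CPM (535, 775 and 1352) against 1296 ± 273 CPM (1021, 1228 and 1815), a log2 fold change of -0.64 ± 0.20 (edgeR adjusted p = 0.0456), and the ranges overlapped. *Tyrobp* (-0.67 ± 0.34) and *Cd7* (-0.72 ± 0.28) passed with the Svs-rich cells but not without them (edgeR adjusted p = 0.222 and 0.092). The aging mouse of 3 months in this fit, 3 months chow 2, had the highest aging values of *Fcer1g* (1352 CPM) and *Klrd1* (236 CPM), and its *Tyrobp* and *Cd7* levels were 1545 CPM each.

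Pool and age differ together in these tests, so the pools were also compared at 3 months alone, in 2 aging and 8 diet mice with at least 5 cells, Svs-rich cells included. There 127 of 1690 genes passed (7.51%). Of the genes named or listed that had passed with all ages and could be tested, 19 passed and 10 did not, all in the same direction. The diet mice of the first fit and 3 months chow 2 were used again here, with or without Svs-rich cells. A shared direction is therefore no independent evidence. *Il2rb* passed with a log2 fold change of -1.98 (edgeR adjusted p = 0.00229), and *Klrd1* with -1.74 (edgeR adjusted p = 0.0490). *Fcer1g* (-1.09, adjusted p = 0.0719), *Tyrobp* (-1.21, 0.167) and *Cd7* (-0.98, 0.132) did not pass edgeR's test. Without Svs-rich cells, 3 of 1043 genes passed in these mice (0.288%), with 170 at an unadjusted p below 0.05. Of the genes named or listed, 25 could be tested there, all kept their direction and 1 passed (*BC004004*). *Il2rb* then had a log2 fold change of -1.04 (edgeR adjusted p = 0.109), *Klrd1* -0.97 (0.337) and *Fcer1g* -0.29 (0.719), so at 3 months *Il2rb* and *Klrd1* passed only with the Svs-rich cells included.

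Further named genes fell in the aging pool, again with levels without Svs-rich cells. *Cemip2*, a hyaluronidase of the cell surface, had 79.7 ± 48.3 CPM (lowest 21.4, highest 150, n = 7) against 329 ± 116 CPM (257 to 561, n = 6), without overlap (log2 fold change -2.01 ± 0.31, edgeR adjusted p = 0.000883). *Tgfb1*, the cytokine TGF-beta 1, had 113 ± 69.9 CPM (37.1 to 218) against 311 ± 97.3 CPM (128 to 393). *Serpinb9* had 181 ± 105 CPM (55.6 to 354) against 377 ± 154 CPM (214 to 660), and *Serpinb6b* 129 ± 82.8 CPM (22.1 to 236) against 369 ± 144 CPM (192 to 599). These 3 ranges overlapped, and all 3 genes passed the test (edgeR adjusted p = 0.015, 0.0491 and 0.0134). *Bcl2l11* (BIM, which promotes apoptosis) had 135 ± 77.9 CPM (75.7 to 301) against 387 ± 76.9 CPM (307 to 468), with no overlap (log2 fold change -1.55 ± 0.28, edgeR adjusted p = 0.00203). At 3 months alone, in part the same mice, *Cemip2*, *Serpinb9*, *Serpinb6b* and *Bcl2l11* also passed (log2 fold change -2.41, -2.10, -2.07 and -2.08). *Tgfb1* did not pass there (-1.25, edgeR adjusted p = 0.118). Without Svs-rich cells none of these 5 passed at 3 months, with *Cemip2* at -1.64 (edgeR adjusted p = 0.106) and *Bcl2l11* at -1.29 (0.256). Over all ages and without Svs-rich cells, ribosomal protein genes made up 21 of the 50 genes that fell. They were 21 of 79 tested, against 6.11% of all genes, and none rose.

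**Figure D4:**
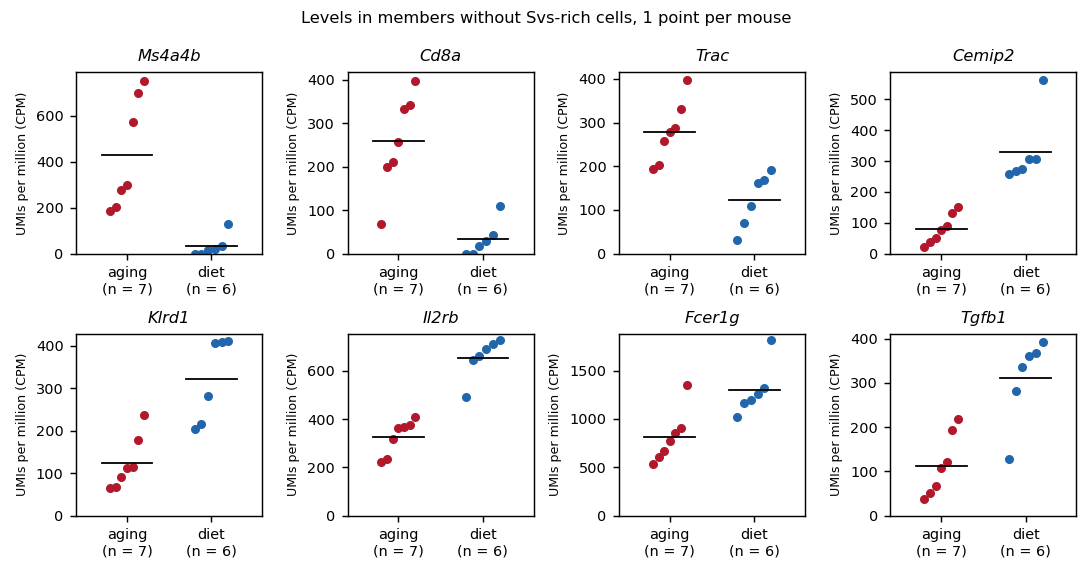
Levels of 8 genes in cytotoxic lymphocytes (members in the plot) without Svs-rich cells (y axis, CPM), 1 point per mouse with at least 10 of the cells, for 7 mice of the aging pool and 6 of the diet pool, lines at the mean. *Ms4a4b*, *Trac*, *Cemip2* and *Il2rb* show no overlap between the pools.

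The counts by list stand beside 6.16% of all genes that rose and 7.4% that fell with all cells, and 6.72% and 6.11% without Svs-rich cells. By list, 8 of the NK receptor and adaptor genes had enough UMIs to be tested with all cells. None rose and 5 fell (*Cd7*, *Klrd1*, *Il2rb*, *Fcer1g* and *Tyrobp*), with a median log2 fold change of -1.16 against 0.04 over all genes. Without Svs-rich cells 3 of 7 fell. Among cytokine and chemokine receptors 3 of 4 fell (*Il21r*, *Ifngr1* and *Il2rg*), of which *Il21r*, the interleukin 21 receptor, fell again among the 3 tested without Svs-rich cells (log2 fold change -0.72 ± 0.19, edgeR adjusted p = 0.0214). Of 8 T cell receptor genes *Trbc1* fell with all cells, and *Trac* and *Cd8a* rose without Svs-rich cells. None of 17 dissociation stress genes passed with all cells, and *Hsp90aa1* passed without Svs-rich cells (log2 fold change 1.01), a share near that of all genes. The chemokines *Ccl5*, *Xcl1* and *Ccl4* did not pass in either fit. Without Svs-rich cells their log2 fold changes were 0.25 ± 0.23, 0.54 ± 0.26 and 1.06 ± 0.38.

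Some genes with few UMIs were read almost wholly in 1 of the pools. *Gzmk*, a granzyme of memory-like CD8 T cells, had 60 UMIs in 132 cells of the aging pool, in 9 of 10 mice, and 1 UMI in 123 cells of the diet pool. It had 0 UMIs in 118 cells of the single-mouse libraries. *Klra4* (Ly49D), an activating NK receptor, had 0 UMIs in the same 132 cells and 52 UMIs in the diet pool, in 6 of 8 mice. Its gene family differs between mouse strains, its members are close paralogs and the reads were counted on a C57BL/6J genome, so single *Klra* values are uncertain. No test was run on these genes, which were picked for their values.

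The pool differences were also set against those of the C1q-rich cells in 1 edgeR fit with the mouse as a block. It used the 14 mice of the pools with at least 10 of the cytotoxic lymphocytes. Some lymphocyte genes were near 0 in the C1q-rich cells (*Il2rb* with means of 7.27 CPM in the aging and 1.56 CPM in the diet pool), so their values there rest on few UMIs. The difference of differences passed for 60 of 3391 genes (1.77%), 29 above 0 (0.855%) and 31 below (0.914%). Without Svs-rich cells it passed for 17 of 2114 (0.804%), 11 above 0 (0.52%) and 6 below (0.284%), and 11 genes passed in both fits. *Il7r* was among these. It had 143 ± 81.5 CPM in cytotoxic lymphocytes of the aging pool (lowest 44.3, median 150, highest 236, n = 7) and 20.3 ± 19.5 CPM in the diet pool (0, 20.8 and 46.1, n = 6), with the lowest aging mouse within the diet range. Its difference of log2 differences was 2.90 ± 0.54 (edgeR adjusted p = 0.0146), and 3.50 ± 0.56 without Svs-rich cells. Markers of other cells and of stress moved in the same fit. The smooth muscle gene *Tagln* was at 6.99 with all cells (edgeR adjusted p = 0.0163), with means of 36.6 and 7.29 CPM in cytotoxic lymphocytes and 7.98 and 333 CPM in C1q-rich cells of the aging and the diet pool. Without Svs-rich cells both smooth muscle genes tested passed, *Tagln* at 7.50 and *Acta2* at 5.48. The dissociation stress genes *Dnajb1* (-1.65) and *Hspa1b* (-1.30) passed with all cells, and none of 18 did without Svs-rich cells. Their part in the other values was not tested. For *Klrk1* the difference of log2 differences was below 0, at -3.84 ± 0.63 with all cells (edgeR adjusted p = 0.00884) and -3.30 ± 0.68 without Svs-rich cells, while its own pool difference did not pass in cytotoxic lymphocytes (-1.14 ± 0.39, edgeR adjusted p = 0.0594). The C1q-rich cells had a mean of 33.8 CPM of *Klrk1* in the aging and 4.15 CPM in the diet pool. *Ablim1*, *Ctla2b* and *Mxd4* were also below 0 in both fits. *Il2rb*, *Cemip2* and *Cd200r4* passed with all cells and not without the Svs-rich ones. Against the non-cytotoxic T cells, a more similar class with at least 10 cells in 8 aging and 4 diet mice, edgeR called 0 of 2629 genes (0%), with 188 at an unadjusted p below 0.05. Without Svs-rich cells it called 0 of 1485 (0%), with 108 at that level. There *Il2rb* had a difference of log2 differences of -1.41 ± 0.46 (edgeR adjusted p = 0.382) and *Il7r* 2.19 ± 0.74 (0.403). The pool differences were thus not shown to differ from those of other T cells.

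Age could hardly be tested for gene levels in these cells. In the aging pool, at least 10 of the cells were present in 1 mouse of 3 months and 7 older mice. That mouse, 3 months chow 2, had 19 cells with 216472 UMIs, of which 46588 remained without its 4 Svs-rich cells. In this comparison 0 of 3611 genes passed edgeR's test (0%), which held rapamycin as a covariate. An unadjusted p under 0.05 was found for 66, and DESeq2 gave 0 genes with 38 at that level. Without Svs-rich cells, with 1 mouse of 3 months and 6 older mice, edgeR gave 0 of 1452 genes (0%), with 87 below an unadjusted p of 0.05. Without cells that held 5 or more UMIs of stromal, endothelial, basal or B cell markers 16 genes passed, and without the filter on low counts 15. On simulated counts of this design 48.7% of 195 tested genes changed by 2 on the log2 scale were found, so a change of that size would often have been missed.

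CD3-positive and CD3-negative cytotoxic lymphocytes were compared within mice. Only 2 mice, the young individual and caloric restriction 2, had 10 cells of each kind, and there 14 of 804 genes passed (1.74%), 5 higher in CD3-positive cells (0.622%) and 9 lower (1.12%). Higher were *Cxcr6* (log2 fold change 3.94), *Trbc2* (1.79), *Cd7* (1.55), *Spag11b* (5.28) and *Defb20* (3.32), the last of which are defensin-like genes of the epididymis. Lower were *Klrb1b* (-3.60), an inhibitory NK receptor, and, among others, *Mfap4* (-3.88) and *Col1a2* (-2.28) of connective tissue, *Stmn1* (-3.32), *Hspb1* (-2.99), *Lgals1* (-2.44), *Tpm1* (-1.79) and *Lmna* (-1.61). These values rest on 2 mice, 1 of them the young individual with its epididymal RNA, and DESeq2 called 0 genes there, with 9 at an unadjusted p below 0.05. *Hspb1* turned to 1.37 over 15 mice with at least 2 cells of each kind, and to 0.23 there without Svs-rich cells. An added fit with at least 2 cells of each kind used 15 mice with the mouse as a block, and 16 of 296 genes passed (5.41%), 7 higher (2.36%) and 9 lower (3.04%). Without Svs-rich cells 10 of 305 passed (3.28%), 5 higher (1.64%) and 5 lower (1.64%). Mitochondrial genes took part in this split. With all cells all 9 tested were above 0 and 6 passed (*mt-Nd4l*, *mt-Nd4*, *mt-Co1*, *mt-Cytb*, *mt-Co2* and *mt-Atp6*), so 6 of the 7 genes called higher in CD3-positive cells were mitochondrial. Without Svs-rich cells 2 passed (*mt-Nd4l* and *mt-Nd4*). The median mitochondrial share of a cell's UMIs was 2.19 ± 1.12% in CD3-positive and 1.79 ± 1.18% in CD3-negative cells (SD over 15 mice, without Svs-rich cells), higher in CD3-positive cells in 12 of 15 mice, and its part in the other calls was not tested. Of the NK receptor and adaptor genes, 5 could be tested without Svs-rich cells, of which 1 was higher in CD3-positive cells (*Cd7*) and none lower. With at least 10 cells 11 were tested, 1 higher (*Cd7*), 1 lower (*Klrb1b*) and 9 not called. *Irf8*, a transcription factor of NK and myeloid cells, was lower in CD3-positive than in CD3-negative cells in 13 of 15 mice (log2 fold change -2.60 ± 0.39 without Svs-rich cells, edgeR adjusted p = 0.000723). *Anxa2*, a membrane-binding protein, was lower in 15 of 15 mice (-1.36 ± 0.23, adjusted p = 0.000833), and *Id2*, a regulator that innate lymphocytes need, in 14 of 15 (-1.09 ± 0.25, adjusted p = 0.0136). *Gem* and *AW112010* were lower as well. In the other direction, *Trbc2* was higher in 14 of 15 mice (1.71 ± 0.30, adjusted p = 0.00105) and *Cd7* in 13 of 15 (1.04 ± 0.23, adjusted p = 0.0107), with *Rgs1* at 1.00 ± 0.25 (adjusted p = 0.0272). With the Svs-rich cells *Cd7* (0.86, adjusted p = 0.0897, higher in 11 of 15 mice) and *Rgs1* (0.81, adjusted p = 0.135) did not pass. *Il2rb* was lower in CD3-positive cells with all cells (-0.84 ± 0.23, adjusted p = 0.0321) but did not pass without Svs-rich ones (-0.68 ± 0.23, adjusted p = 0.112), and *Fcer1g* did not differ beyond its error (-0.18 ± 0.29). Of the 14 genes that passed with at least 10 cells, 5 could be tested in the 15 mice without Svs-rich cells, and 2 of these passed, *Trbc2* and *Cd7*. With the young and the old individual left out as well, 13 mice remained and 13 of 294 genes passed (4.42%). *Anxa2* (-1.51), *Id2* (-1.15), *Gem* (-1.05), *AW112010* (-1.17), *Trbc2* (1.80), *Cd7* (1.05) and *Rgs1* (1.08) were among them, beside *mt-Co1*, *mt-Nd4l*, *mt-Atp6* and *mt-Nd4*, and *Irf8* fell below the filter on low counts.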

How the data were processed

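The authors deposited UMI counts per gene and cell for each mouse, not normalized. Per the file headers, reads were counted with Cell Ranger 6.0.1 (pools) and 3.1.0 (single libraries), and the submitters' processing notes named mm10 and Seurat. Counts of 30406 genes shared by Ensembl identifier were used. Conditions of pooled mice came from the names of their tables. The cells and gene lists were chosen with earlier results of these data known. After the filter, a mouse held 974010 to 46338707 UMIs. Mice of 1 group were separate animals. UMIs were summed per mouse (at least 10 cells) and tested with edgeR 4.0.16 in R 4.3.3 (TMM, filterByExpr), with DESeq2 1.42.0 as an alternative. Printed CPM are UMIs per 1000000 over all shared genes. Shares were tested by exact permutation, since all splits could be listed. Python 3.11.15, SciPy 1.17.1, NumPy 2.4.6, pandas 2.3.3 and matplotlib 3.10.9 were used, with GENCODE vM21 coordinates. Named genes were all listed genes and the 8 with the largest change in each direction past an adjusted p of 0.05 with at least 50 CPM, without gene models. Genes named after their values were seen were *Gzmk*, *Klra4*, *Cd2*, *Mxd4*, *Gem*, *AW112010* and *Anxa2*. Alternatives were other UMI limits, normalizations, count filters, cell filters, thinning and left-out mice. Leaving out Svs-rich cells or the young and the old individual, the pool comparison at 3 months alone, that with non-cytotoxic T cells, the fit with at least 2 cells of each kind and the tests on *Cd8a*, *Cd8b1*, *Fcer1g* and *Tyrobp* were added after seeing the data. On simulated counts, 100% of the 145 changed genes that passed the count filter (of 200) were recovered in the pool design, 93.5% of 200 in the comparison with C1q-rich cells and 67.2% of 137 (of 162) in the CD3 comparison. 1 listed gene is not reported here.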

Additional observations from a re-analysis of the deposited data

Results flagged for a closer look

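In 6 of 59 groups of mice checked, 1 mouse lay apart from the others by Dixon's criterion, and chance gives about 1 in 20. The values are over all cytotoxic lymphocytes of mice with at least 10 of them. In the aging pool, 20 months rapamycin 1 was highest with 278 CPM of *Eomes* and 1070 CPM of *Ifng*, and 28 months rapamycin 2 had 7.48 CPM of *Klra4* with all other mice at 0. In the diet pool, low protein 1 had the lowest share of cells with both adaptors (41.7%), high fat 1 the lowest *Fcer1g* level (834 CPM) and control 1 the highest *Gzmc* level (507 CPM).

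The pool difference itself differed between cytotoxic lymphocytes and C1q-rich cells for 60 genes. Among those with at least 50 CPM in cytotoxic lymphocytes of either pool, gene models left out, the largest on the log2 scale were *Sfn* (3.82), *F3* (3.49), *Palld* (3.27), *Lcn2* (3.17), *Cxcl1* (3.15), *Il7r* (2.90), *Qsox1* (2.76) and *Rcn1* (2.55) above 0. Below 0 were *Cd200r4* (-6.67), *Klrk1* (-3.84), *Ablim1* (-3.29), *Il2rb* (-3.19), *Cemip2* (-2.79), *Ctla2b* (-2.45), *Sesn1* (-2.28) and *Fgl2* (-2.25). Of these 16 genes, *Il7r*, *Klrk1*, *Ablim1* and *Ctla2b* also passed without Svs-rich cells. The smooth muscle gene *Tagln*, below that level, was at 6.99. None of the 16 passed where non-cytotoxic T cells stood in place of the C1q-rich cells.

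Outside the cells analysed, 151 cells held at least 5 granzyme and *Nkg7* UMIs but had too few genes or too many mitochondrial UMIs.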

How the results depend on the processing

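The pool difference in the share of cytotoxic lymphocytes turned to -7.72 percentage points (p = 0.000823, exact permutation test) of cells with a *Ptprc* UMI, and to -0.412 with every cell thinned to 1000 UMIs. That between 3 months and older mice turned to 0.868 of *Ptprc* cells. The CD3-positive difference was 11.5 (p = 0.0498, exact permutation test) with at least 3 rule UMIs and -0.149 when thinned. Thinning before the rule gave 15.9 for CD8 (p = 0.0893) and 7.52 for the adaptors, and mice of 3 months alone gave -16.4 for the adaptors (p = 0.4, all exact permutation tests). Leaving out 1 mouse gave -0.757 to -0.275 for age, 0.591 to 1.40 for rapamycin and F of 0.514 to 3.34 for diet. The pool comparison called 152 genes (69 higher, 83 lower), 321 by library size (21 higher, 300 lower), where the median of all genes moved from 0.04 to -0.57, 404 without the count filter and 231 with at least 10 rule UMIs. The comparison with C1q-rich cells called 60 genes, 113 by DESeq2, 192 without the filter, 10 without cells holding stromal UMIs, 17 without Svs-rich cells and 0 against non-cytotoxic T cells, with or without Svs-rich cells. At 3 months alone and without Svs-rich cells the pools differed in 3 genes. Age called 15 genes without the filter and 16 without cells holding stromal UMIs. Leaving out 1 mouse at 5 or more cells gave 0 to 2, with 2 only without 3 months chow 2. A fit with the replicate block called 0 genes. The CD3 comparison called 14 genes, 0 by DESeq2 and 8 with CD3-positive from 1 UMI. Single genes turned sign in log2: *Fcer1g* against non-cytotoxic T cells (1.26; 1.46 without Svs-rich cells), *Fgl2* there without Svs-rich cells (0.35), *Rgs1* (0.082) and *Qsox1* (-0.25) without cells holding stromal UMIs, *Hspb1* with at least 2 cells of each kind (1.37; 0.23 without Svs-rich cells) and *Ccl4* with at least 2 cells and without Svs-rich cells (0.00403; 0.17 also without the young and the old individual). The causes were not tested. Age could not be fitted with at least 20 cells or without 3 months chow 2, nor the CD3 comparison with at least 10 rule UMIs, 20 cells, 2000 UMIs per cell, pools only or without stromal UMIs.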
